A study of Caenorhabditis elegans with 12 samples.

Results

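The FMRFamide-like peptide genes of *C. elegans*, named *flp*, were followed in worms without or with altered ATFS-1, the transcription factor of the mitochondrial unfolded protein response (UPRmt). Every row of the deposited count table whose gene has a WormBase name starting with *flp-* was taken. This gave 31 genes among 46739 rows, of which 43720 had a symbol. RNA came from whole worms of the strain N2 at the L4 larval stage, grown, per the labels, on OP50 bacteria at 20 °C without treatment. The methods of the study name HT115 bacteria for worms used in RNA isolation and qRT-PCR, and which applied to these libraries was not tested. In experiment 1, 3 libraries of *atfs-1(null)* worms, which lack the *atfs-1* open reading frame, were set against 3 wild-type libraries. In experiment 2, which the labels call batch 2, 3 libraries of *atfs-1(et18)* worms were set against 3 other wild-type libraries. In *et18* worms ATFS-1 carries a substitution in the signal that sends it to mitochondria, and the UPRmt is always on. Each library is a pool of many worms, and the study describes both mutants as developing slowly. The comparison asks how the transcripts of this peptide family changed when ATFS-1 was lost and when it was always active.

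Each *flp* gene encodes a precursor protein that is cut into short peptides ending in arginine and phenylalanine. The prohormone convertase EGL-3 and the carboxypeptidase EGL-21 release the peptides, which are then amidated, stored in dense core vesicles and secreted to act on G protein-coupled receptors. Most *flp* genes are active in a small set of neurons, and the peptides are known for control of locomotion, feeding, egg laying, fat, sleep and male mating. In RNA from whole worms, fewer cells of a type and less RNA per cell cannot be told apart.

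Total counts per library lay between 24090660 and 37050803, and all *atfs-1(et18)* totals were below those of their wild type. The *atfs-1* gene itself had 1104 to 1558 counts in the wild type of experiment 1 and 19 to 27 counts in *atfs-1(null)*. In experiment 2 it had 1680 to 2734 counts in wild type and 2029 to 2377 in *atfs-1(et18)*, where the labels cannot be checked by a missing transcript. After scaling of the libraries, its log2 fold change in *atfs-1(et18)* was 0.44 (edgeR adjusted p = 0.0385). Replicate 3 of *atfs-1(null)* and replicate 2 of *atfs-1(et18)* stood apart from the other libraries of their groups. The summed level of 31 sperm genes was 596 CPM (counts per 1000000 counts of the normalised library) in replicate 3 of *atfs-1(null)* and 1274 and 1440 in the other libraries of that group, against 68.8 to 166 in its wild type. The summed level of 6 yolk protein genes was 31287 CPM in that library and 11128 and 11531 in the others, against 696 to 2237 in wild type. In replicate 2 of *atfs-1(et18)* the sperm genes summed to 872 CPM and the yolk genes to 21939 CPM, while the other *atfs-1(et18)* libraries had at most 272 and 5388 CPM and the wild type at most 430 and 7519 CPM. The part of the germ line or of developmental stage in the *flp* results was not tested. A difference in stage between strains cannot be told apart from genotype in these comparisons. The counts of called *flp* genes are also given without each of the libraries that stood apart.

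The *flp* genes are spread over all chromosomes, with 13 of 31 on X, 5 each on III and IV, 3 each on II and V and 2 on I. Of all genes tested, 14.0% lie on X. *flp-28*, *flp-3* and *flp-2* lie side by side on the minus strand of X within 7881 bases (WBcel235, X:10087346-10095226). These genes are inside the span of W07E11.1, which runs on the plus strand from 10084667 to 10104121, and no exon base is shared. Exons of *flp-8*, *flp-11* and *flp-17* shared 21, 16 and 7 bases with other genes, and no other *flp* gene shared exon bases. The precursors were 66 to 208 residues long in the Ensembl annotation of WBcel235, *flp-21* having the shortest and *flp-18* the longest.

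*flp-23*, on chromosome III, had 0 or 1 count in each of the 12 libraries. That is under the floor of 3 counts per library, so no level or fold is given for it. The other 30 genes passed the filter on low counts in both experiments, with 23 to 1097 counts per library (median 260). Summed over the family, the level was 300.3 to 314 CPM in wild type and 230.3 to 305 CPM in *atfs-1(null)*, where replicate 3 had the lowest sum. In experiment 2 it was 348 to 391 CPM in wild type and 299 to 313 CPM in *atfs-1(et18)*, and the groups did not overlap. The sums differed by -56.8 CPM in *atfs-1(et18)* (exact permutation test, two-sided, p = 0.1, the smallest that 3 against 3 allows) and by -31.2 CPM in *atfs-1(null)* (p = 0.3).

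Per length of transcript, *flp-28* had the highest wild-type level in both experiments, at 47.5 ± 1.82 RPKM (SD, n = 3) in experiment 1 and 59.2 ± 4.11 in experiment 2. In experiment 1 it was followed by *flp-15* at 40.8 ± 8.65 RPKM, *flp-16* at 39.4 ± 6.74, *flp-22* at 37.1 ± 3.45 and *flp-10* at 31.7 ± 1.97. The libraries of *flp-28*, *flp-15*, *flp-16* and *flp-22* overlapped from each gene to the next, and those of *flp-22* were all above those of *flp-10*. In experiment 2 the order after *flp-28* was *flp-9* at 36.0 ± 4.64 RPKM, *flp-22* at 34.4 ± 4.77, *flp-16* at 33.7 ± 4.21 and *flp-24* at 29.1 ± 3.13, and *flp-28* stood clear of them. *flp-32* was lowest of the 30 in both experiments, at 2.67 ± 0.701 and 5.59 ± 1.37 RPKM. *flp-15* took place 2 in experiment 1 and place 9 in experiment 2, at 25.8 ± 4.62 RPKM, while *flp-17* took places 28 and 17, at 5.44 ± 1.51 and 13.4 ± 2.33 RPKM. The experiments were scaled separately, and no test was made between their wild types.

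**Figure D1:**
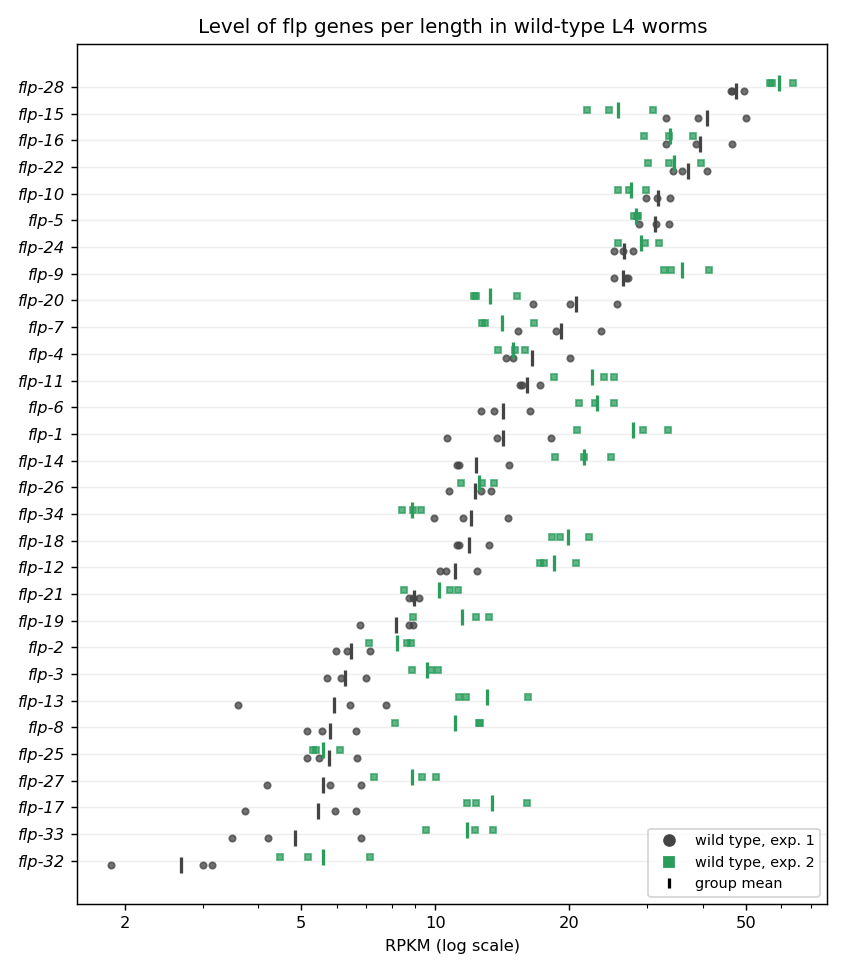
Level of 30 *flp* genes in wild-type L4 worms, in RPKM on a log axis. Circles are the 3 libraries of experiment 1, squares those of experiment 2, and bars the group means. *flp-28* was highest in both and *flp-32* lowest.

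In *atfs-1(null)*, 9 *flp* genes fell and 5 rose among the 30 tested. The genes that fell were led by *flp-15*, *flp-7*, *flp-20* and *flp-34*, each to between 0.405 and 0.492 of wild type. *flp-17* rose 2.06-fold, and *flp-3*, *flp-6*, *flp-18* and *flp-14* rose 1.49- to 1.64-fold. Across all 15620 genes tested, 35.4% fell and 32.9% rose at the same threshold, an edgeR adjusted p under 0.05. The 14 called *flp* genes were 46.7% of those tested, against 68.3% of all genes. The median log2 fold change was -0.09 over the *flp* genes and -0.04 over all genes, and the sign of the *flp* median changed with the scaling of the libraries and with the filter on low counts. Of the 30 genes, 17 had a log2 fold change below 0, against 51.3% of all genes. The groups did not overlap for 14 genes with *atfs-1(null)* below (39.7% of all genes) and for 4 with it above (34.5% of all genes).

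*flp-15* (WBGene00001458, III:13663402-13667838, minus strand), whose peptides activate the receptor NPR-3, had 17.4, 14.7 and 22.3 CPM in the wild-type libraries and 7.17, 5.66 and 9.25 CPM in *atfs-1(null)*. Every mutant library was below every wild-type library. Its log2 fold change was -1.30 ± 0.25 (approximate SE, n = 3 per group; edgeR adjusted p = 0.00303). *flp-7* (X:5885865-5886833, plus strand) encodes peptides that act from neurons on fat loss in the intestine through NPR-22. It had 14.1, 11.6 and 17.8 CPM in wild type and 6.27, 5.72 and 7.30 CPM in the mutant, again without overlap, a log2 fold change of -1.17 ± 0.21 (edgeR adjusted p = 0.00261). *flp-15* and *flp-7* passed the threshold under all 14 alternative settings.

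*flp-20* (X:9349335-9349890, minus strand), which is active in touch receptor neurons, had 8.87, 7.33 and 11.3 CPM in wild type and 4.22, 2.99 and 5.20 CPM in *atfs-1(null)* (log2 fold change -1.15 ± 0.27, edgeR adjusted p = 0.00776). *flp-34* (V:1027904-1033385, minus strand), a ligand gene of NPR-11, had 7.90, 6.81 and 9.96 CPM and 3.95, 3.56 and 4.61 CPM (-1.02 ± 0.22, adjusted p = 0.00492). For both genes the lowest wild-type library was above the highest mutant library. *flp-5* (X:8528250-8531076, plus strand) had 18.4, 16.9 and 19.7 CPM in wild type and 11.9, 10.03 and 7.80 CPM in the mutant (-0.89 ± 0.19, adjusted p = 0.00561). *flp-5* and *flp-22* were the genes of the 9 with replicate 3 as the lowest mutant library.

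Of the abundant genes, *flp-16* (II:13235306-13237352, plus strand) had 22.4, 19.3 and 27.04 CPM in wild type and 13.5, 14.2 and 14.5 CPM in *atfs-1(null)* (log2 fold change -0.70 ± 0.16, edgeR adjusted p = 0.00728). *flp-10* (IV:7868907-7870075, plus strand), which acts in male turning and is a source of ligands of EGL-6, had 21.3, 22.8 and 20.1 CPM and 13.8, 11.9 and 14.0 CPM (-0.69 ± 0.14, adjusted p = 0.00432). The mutant libraries of these genes lay close together and clear of wild type. *flp-4* (II:10054625-10055556, plus strand) had 7.38, 7.14 and 9.96 CPM in wild type and 4.82, 4.89 and 5.32 CPM in the mutant (-0.70 ± 0.20, adjusted p = 0.0162). The smallest fall was in *flp-22* (I:8658874-8659967, plus strand), with 18.6, 17.8 and 21.3 CPM in wild type and 15.1, 14.1 and 13.2 CPM in the mutant (-0.44 ± 0.14, adjusted p = 0.0281), and its sign changed to 0.12 (adjusted p = 0.435) when libraries were scaled to 12 broad neuronal genes.

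Among the genes that rose, *flp-17* (WBGene00001460, IV:17190204-17191891, minus strand) is expressed in the BAG neurons and encodes ligands of EGL-6 that inhibit egg laying. It had 4.34, 4.82 and 2.72 CPM in wild type and 9.54, 8.60 and 6.41 CPM in *atfs-1(null)*, a log2 fold change of 1.05 ± 0.28 (edgeR adjusted p = 0.0121). Every mutant library was above every wild-type library, and the call held under all 14 alternatives. *flp-3* (X:10092108-10092964, minus strand), a gene of the male response to pheromone, had 4.37, 4.97 and 4.07 CPM in wild type and 8.56, 7.45 and 5.94 CPM in the mutant (0.71 ± 0.21, adjusted p = 0.0185). *flp-6* (V:9471973-9473808, plus strand), expressed in the thermosensory AFD neurons, had 10.1, 12.2 and 9.51 CPM and 19.5, 17.6 and 14.5 CPM (0.70 ± 0.18, adjusted p = 0.0120). Neither gene's groups overlapped.

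*flp-18* (X:3012182-3018555, minus strand), a source of ligands of NPR-1, NPR-4 and NPR-5 with roles in foraging and fat, had 12.9, 11.03 and 10.9 CPM in wild type and 20.9, 20.0 and 12.2 CPM in *atfs-1(null)* (log2 fold change 0.61 ± 0.23, edgeR adjusted p = 0.0491). *flp-14* (III:12910229-12914934, plus strand) had 10.3, 13.3 and 10.2 CPM in wild type and 18.6, 18.7 and 12.8 CPM in the mutant (0.57 ± 0.21, adjusted p = 0.0446). In both, replicate 3 of the mutant lay within the wild-type range and the groups overlapped. Without that library 12 genes were called higher, the same 5 and *flp-1*, *flp-8*, *flp-12*, *flp-13*, *flp-19*, *flp-32* and *flp-33*, while the 9 lower genes stayed the same. Over all genes, 36.1% were higher and 37.3% lower in that fit. The count of higher genes was also 1 without wild-type replicate 1 (27.3% of all genes) and 2 without wild-type replicate 3 (26.8%). It was 2 without mutant replicate 1 (30.4%) and 3 without mutant replicate 2 (28.8%). The count of lower genes was 7 to 9 when 1 library was left out (28.6% to 37.3% of all genes). Scaled to the 12 broad neuronal genes, 12 were called higher (49.3% of all genes) and 2 lower (17.9% of all genes).

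Of the 16 *flp* genes that did not pass in *atfs-1(null)*, *flp-13*, *flp-33* and *flp-32* had the largest positive values, log2 fold changes of 0.78 ± 0.41, 0.73 ± 0.34 and 0.63 ± 0.27 (edgeR adjusted p = 0.129, 0.0872 and 0.0748). *flp-13* had 9.40, 8.48 and 3.78 CPM in the mutant, and its replicate 3 lay inside the wild-type range of 2.55 to 5.50 CPM. *flp-2*, a gene of arousal, *flp-21*, a ligand gene of NPR-1, *flp-24*, *flp-25* and *flp-26* were below wild type in every mutant library, with log2 fold changes of -0.42 to -0.34 and adjusted p of 0.085 to 0.117, but these 5 values were above 0 when libraries were scaled to the broad neuronal genes. The most abundant gene per length, *flp-28*, had 23.6, 23.5 and 25.1 CPM in wild type and 24.5, 23.7 and 22.2 CPM in *atfs-1(null)*, a log2 fold change of -0.04 ± 0.12 (adjusted p = 0.779). Its neighbours on X, *flp-3* and *flp-2*, had values of 0.71 and -0.42. Scaled to the broad neuronal genes, the *flp-28* value was 0.52 (adjusted p = 0.00568).

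**Figure D2:**
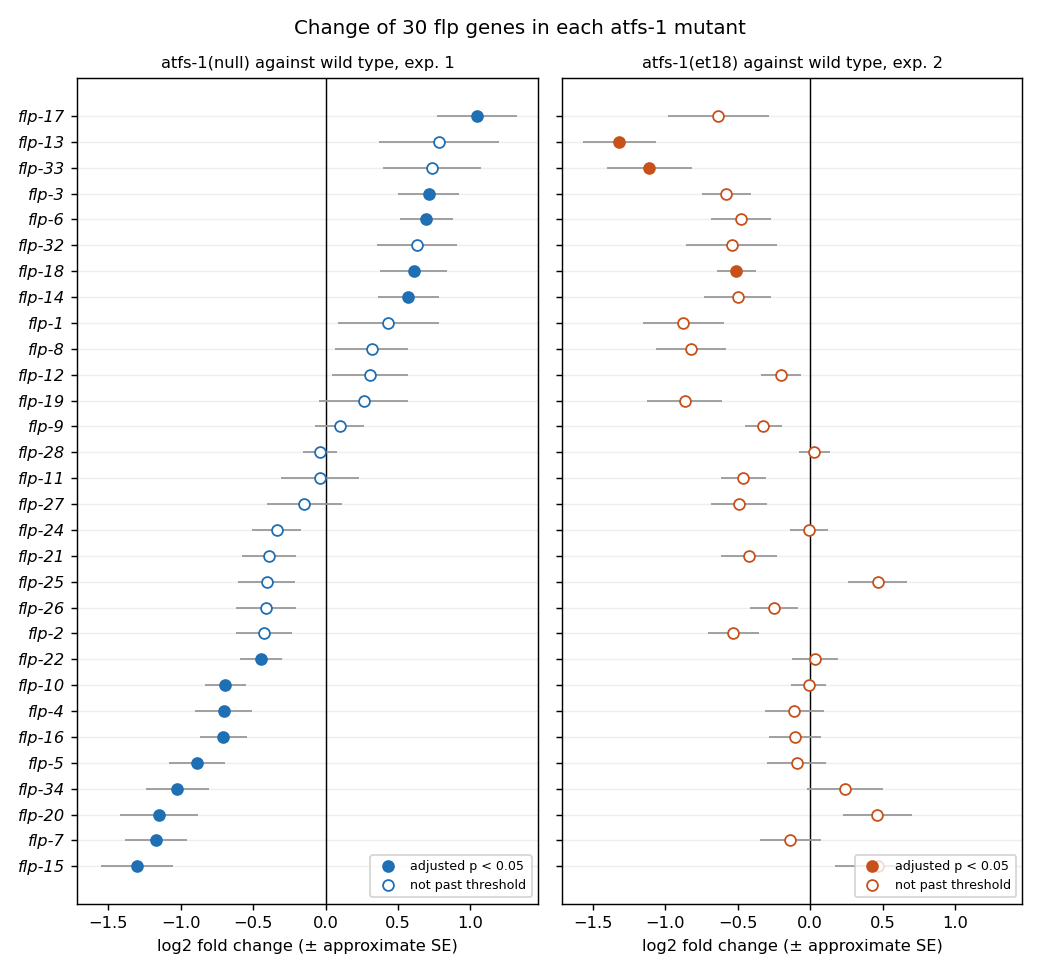
Log2 fold change of 30 *flp* genes in *atfs-1(null)* (left) and *atfs-1(et18)* (right) against the wild type of the same experiment, with approximate SE bars, in the order of the *atfs-1(null)* values. Filled points have an edgeR adjusted p under 0.05: 14 in *atfs-1(null)*, 5 above 0 and 9 below, and 3 in *atfs-1(et18)*, all below 0.

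In *atfs-1(et18)*, 3 *flp* genes fell and 0 rose. *flp-13* fell to 0.402 of wild type, *flp-33* to 0.464 and *flp-18* to 0.703. Across all 15639 genes tested, 7.51% fell and 9.42% rose, 16.9% in all, and 10% of the *flp* genes tested passed. At an unadjusted p under 0.05, 11 *flp* genes were lower (15.7% of all genes) and 0 higher (18.5% of all genes). DESeq2 called 9 lower (9.96% of all genes) and 0 higher (12.2% of all genes). Of the 30 genes, 24 had a log2 fold change below 0, against 44.3% of all genes, and the median was -0.37 over the *flp* genes and 0.07 over all genes. The groups did not overlap for 14 genes with the mutant below (19.6% of all genes) and for 1, *flp-25*, with it above (22.9% of all genes).

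*flp-13* (WBGene00001456, IV:7696934-7698368, minus strand) is expressed in the ALA neuron and drives sleep after cellular stress through the receptor DMSR-1. It had 11.4, 8.02 and 8.31 CPM in wild type and 2.72, 4.37 and 4.05 CPM in *atfs-1(et18)*, with no overlap (log2 fold change -1.32 ± 0.25, edgeR adjusted p = 0.0187). *flp-33* (I:12624249-12625238, minus strand) had 6.15, 4.34 and 5.59 CPM and 1.62, 3.27 and 2.56 CPM (-1.11 ± 0.30, adjusted p = 0.0494). *flp-18* had 21.6, 17.8 and 18.6 CPM and 12.99, 14.5 and 13.3 CPM (-0.51 ± 0.13, adjusted p = 0.0456). In each of these genes, every mutant library was below every wild-type library. Across all genes, the same-numbered libraries of experiment 2 met the rule for pairing, narrowly for the pair numbered 3 (correlations in the methods). The *flp* genes called in *atfs-1(null)*, however, deviated on average in opposite directions in the pairs numbered 1 and 2. When this pairing entered the fit as a block, 1 gene was called, *flp-13* (adjusted p = 0.0336), while *flp-18* had 0.0681 and *flp-33* 0.0652. Over all genes, 9.77% were lower and 10.7% higher in that fit.

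The number of called genes in *atfs-1(et18)* changed with single libraries. Without replicate 2 of the mutant, which stood apart, 10 were called lower, the same 3 and *flp-1*, *flp-3*, *flp-6*, *flp-8*, *flp-14*, *flp-17* and *flp-19*. In that fit 4 were called higher, *flp-15*, *flp-20*, *flp-25* and *flp-34*. Over all genes, 17.2% were higher and 11.3% lower in that fit. In the other direction, 0 were called lower without wild-type replicate 1 (1.77% of all genes), wild-type replicate 3 (1.95%) or mutant replicate 3 (2.18%). *flp-13* was the 1 gene called lower without wild-type replicate 2 (4.25% of all genes) or mutant replicate 1 (4.62%). The loss of a library leaves 2 against 3, with fewer samples in the fit.

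Other genes with lower values in *atfs-1(et18)* did not pass the adjusted threshold. *flp-1*, which acts in the AVK neurons in coordinated locomotion, had 23.1, 14.4 and 20.3 CPM in wild type and 7.24, 13.6 and 10.7 CPM in the mutant (log2 fold change -0.87 ± 0.28, edgeR adjusted p = 0.0809). *flp-19* had 7.20, 4.85 and 6.75 CPM and 2.68, 4.41 and 3.23 CPM (-0.86 ± 0.26, adjusted p = 0.0674). *flp-8*, which acts in male turning, had 9.39, 6.09 and 9.44 CPM and 4.22, 5.68 and 4.20 CPM (-0.82 ± 0.24, adjusted p = 0.0639). In each of these the groups did not overlap, and the mutant library nearest to wild type was replicate 2. *flp-11*, the peptide gene of the sleep-promoting RIS neuron, had 18.5, 13.6 and 17.6 CPM in wild type and 12.01, 12.2 and 11.8 CPM in the mutant (-0.46 ± 0.16, adjusted p = 0.0902). *flp-25*, *flp-15* and *flp-20* had the highest values in *atfs-1(et18)*. *flp-25* had 3.35, 3.79 and 3.29 CPM in wild type and 5.54, 3.80 and 5.09 CPM in the mutant (0.47 ± 0.20, adjusted p = 0.161). *flp-28* had 29.0, 32.4 and 28.7 CPM and 32.998, 30.5 and 28.6 CPM, a log2 fold change of 0.03 ± 0.11. *flp-24*, which like *flp-13* acts in ALA, had 17.4, 14.1 and 16.2 CPM and 15.3, 16.5 and 15.6 CPM (-0.01 ± 0.13), with the mutant inside the wild-type range.

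**Figure D3:**
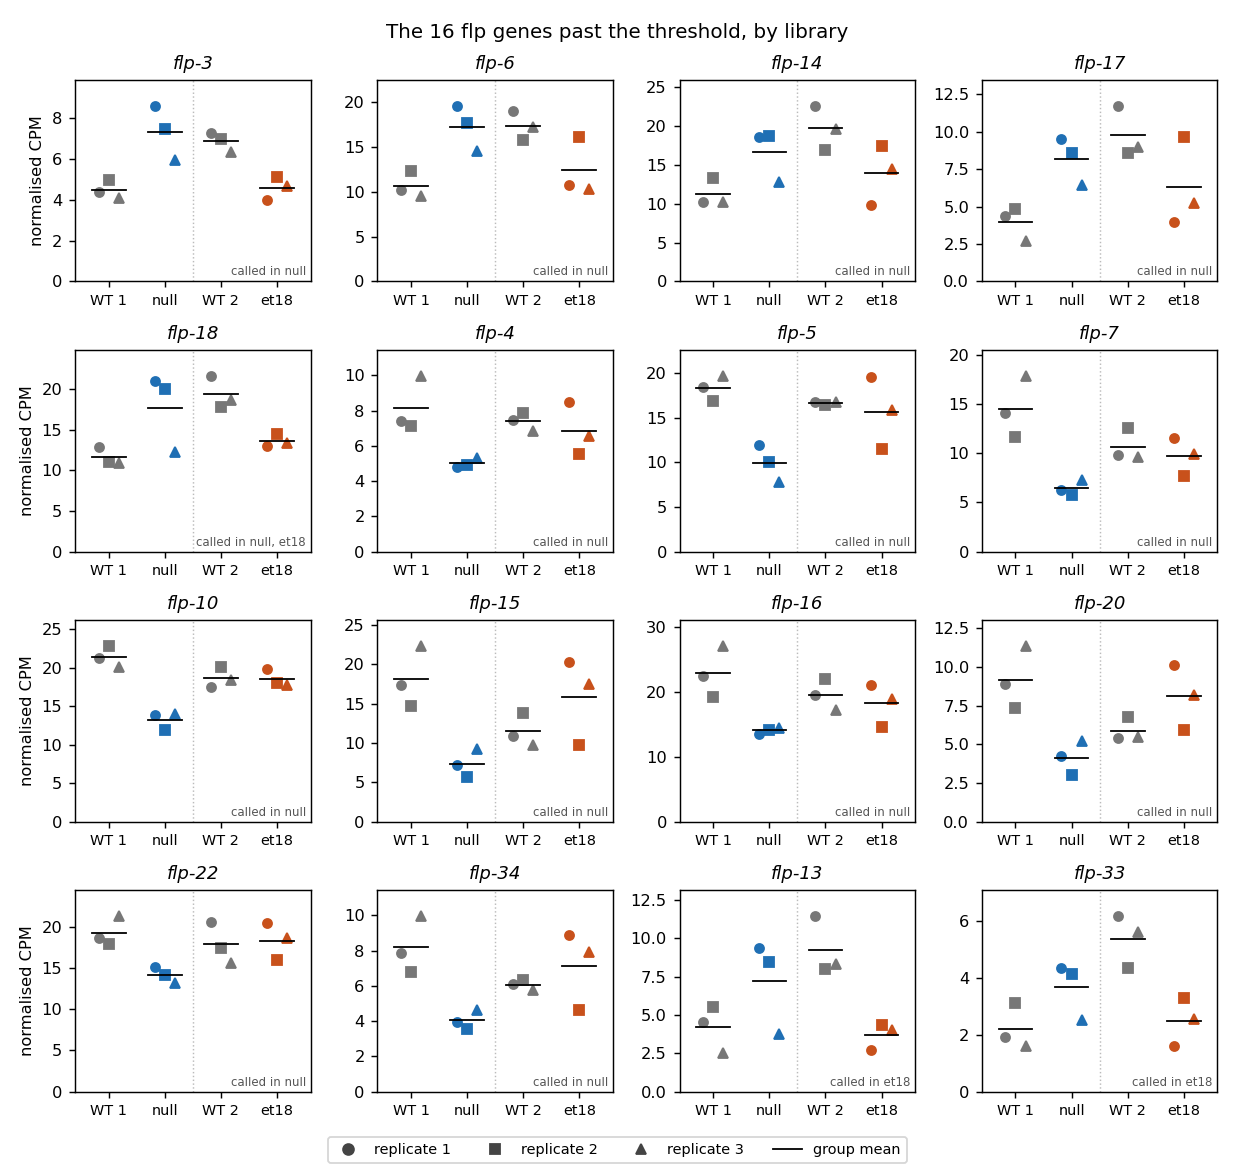
Normalised CPM of the 16 *flp* genes past the threshold in either mutant, 1 panel per gene, with the 3 libraries of each group as separate markers and the group mean as a line. WT 1 and WT 2 are the wild types of experiments 1 and 2. In *flp-18* the mutant mean is above wild type in experiment 1 and below it in experiment 2, and in *flp-15* the *atfs-1(et18)* libraries span 9.80 to 20.3 CPM.

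The change of 18 *flp* genes differed between the mutants in a test of the difference itself over all 12 libraries (edgeR adjusted p under 0.05, 49.0% of all genes). Strain and experiment cannot be told apart in this test. For 11 genes the change in *atfs-1(et18)* was below that in *atfs-1(null)* (22.9% of all genes), and for 7 it was above (26.1% of all genes). No *flp* gene had a fitted value above 0 in both mutants. The 5 genes that rose in *atfs-1(null)* all had values below 0 in *atfs-1(et18)*, and each differed between the mutants. They were chosen on the *atfs-1(null)* change that the test of the difference also uses, so that test is no separate support. The matching shares of all genes that rose in *atfs-1(null)* were not computed. Values in *atfs-1(et18)* were below 0 in 24 of the 30 *flp* genes, against 44.3% of all genes. Of the 9 that fell in *atfs-1(null)*, 5 had values below 0 in *atfs-1(et18)* and 4 above.

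*flp-13* had the largest difference, with log2 fold changes of 0.78 after loss of ATFS-1 and -1.32 in the *et18* strain, a difference of -2.13 ± 0.49 (edgeR adjusted p = 0.00542). *flp-33* differed by -1.88 ± 0.44 (adjusted p = 0.00609) and *flp-17* by -1.72 ± 0.45 (adjusted p = 0.00951). *flp-18*, the gene called in both mutants, rose in the former strain and fell in the latter, and these changes differed by -1.15 ± 0.25 (adjusted p = 0.00423). In the other direction *flp-15* had log2 fold changes of -1.30 and 0.47 ± 0.29, a difference of 1.72 ± 0.42 (adjusted p = 0.00705). *flp-20* differed by 1.57 ± 0.39 (adjusted p = 0.00786) and *flp-34* by 1.22 ± 0.36 (adjusted p = 0.0173). The difference of *flp-28* was 0.03 ± 0.15, the smallest in size of the 30. The count of 18 was 11 without wild-type replicate 3 of experiment 1 or without replicate 1 of *atfs-1(et18)*, and 20 when either of the libraries that stood apart was left out alone. Over all genes, 34.9% and 35.3% differed in the fits that gave 11, against 49.0% with every library. In the fits that gave 20, 55.2% and 59.2% of all genes differed.

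Among the *flp* genes, those that rose and those that fell in *atfs-1(null)* also differed in how they varied among libraries of the same strain. Experiment 2 was not used to choose them. The same deviations were not computed for all genes that rose or fell in *atfs-1(null)*. Whether the pattern is particular to the *flp* genes was therefore not tested. Replicate 2 of *atfs-1(et18)* and replicate 3 of *atfs-1(null)* also stood apart from their groups across all genes. In *atfs-1(et18)* replicate 2, the 9 genes that fell in *atfs-1(null)* were on average 0.35 below the mean of their group on the log2 scale, with 0 of 9 above it, and the 5 genes that rose were on average 0.35 above it, with 5 of 5 above. Replicate 1 of *atfs-1(et18)* had the reverse, with means of 0.29 for the 9 genes, 9 of 9 above, and -0.29 for the 5 genes, 0 of 5 above. This opposite movement was smaller in the wild type of experiment 2, where replicate 1 was highest in 5 of the 5 genes and replicate 2 highest in 7 of the 9. Means there lay between -0.12 and 0.17 for the 5 genes and between -0.11 and 0.13 for the 9. In the wild type of experiment 1, whose libraries did enter the choice, replicate 3 was lowest in 5 of the 5 and highest in 8 of the 9. The movement was not opposite in every library. Means for the 5 and the 9 genes were 0.23 and 0.037 in replicate 1 of *atfs-1(null)*. They were -0.053 and -0.11 in replicate 3 of the wild type of experiment 2. In replicate 3 of *atfs-1(null)*, 22 of the 30 *flp* genes had their lowest value of the group, 5 of the 5 among them, while 7 of the 9 had their highest. Means of the 16 genes not called in *atfs-1(null)* mostly had the sign of the 5 genes that rose. They were -0.38 in that library and -0.14 and 0.11 in replicates 1 and 2 of *atfs-1(et18)*. The sign differed in replicate 3 of *atfs-1(et18)* (0.031 against -0.057) and of the wild type of experiment 2 (0.00021 against -0.053). The libraries with the opposite extremes in *atfs-1(et18)*, replicates 1 and 2, had sperm gene sums of 196 and 872 CPM. Their yolk gene sums were 5388 and 21939 CPM. The part of the germ line or of developmental stage in this pattern was not tested.

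**Figure D4:**
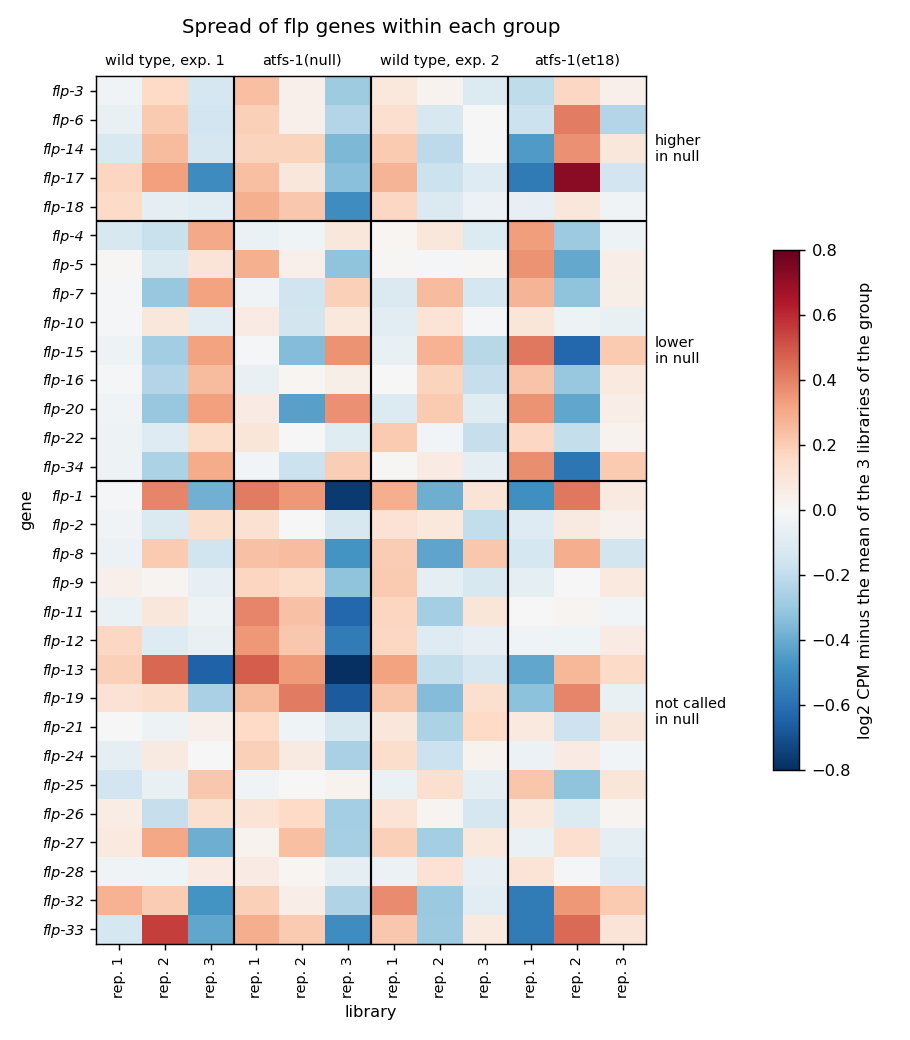
Log2 CPM of 30 *flp* genes in each of the 12 libraries, as the difference from the mean of the 3 libraries of the group (red above, blue below). Rows are ordered by the call in *atfs-1(null)*. In *atfs-1(et18)* replicate 2 the 5 genes of the top block are above the mean of the group and the 9 genes of the middle block are below it.

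The enzymes that make the peptides were measured beside the ligands. The counts of this and the other lists are to be read against the shares of all genes, 35.4% lower and 32.9% higher in *atfs-1(null)* and 7.51% lower and 9.42% higher in *atfs-1(et18)*. Of 11 genes for precursor processing, 9 fell and 0 rose in *atfs-1(null)* (edgeR; at an unadjusted p under 0.05 also 9 lower, and 1 higher), with a median log2 fold change of -0.60. *egl-3*, the main convertase, had 150.1, 141 and 164 CPM in wild type and 110.2, 98.4 and 90.8 CPM in the mutant (-0.60 ± 0.11, adjusted p = 0.00275). *egl-21*, the carboxypeptidase that trims the basic residues, had a log2 fold change of -0.87 ± 0.12 (adjusted p = 0.000794). The largest falls were in *aex-5*, a convertase, at -1.52 ± 0.14, and *cpd-1*, a carboxypeptidase, at -1.36 ± 0.13. In *atfs-1(et18)* 1 of the 11 fell, *pgal-1*, an enzyme of the amidation step, at -0.41 ± 0.08 (adjusted p = 0.0225), and the median was -0.19. *egl-3* and *egl-21* had values of -0.19 ± 0.08 and -0.24 ± 0.12 there (adjusted p = 0.148 and 0.209). Of 12 dense core vesicle genes, 6 fell and 1 rose in *atfs-1(null)* (median -0.38), led by *cccp-1* at -1.32, *hid-1* at -1.11 and *ric-19* at -1.07. In *atfs-1(et18)*, *unc-31*, needed for release of these vesicles, fell by 0.60 on the log2 scale and *pkc-1* rose by 0.33, and the median was -0.04.

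Of 45 genes for receptors of the family and their relatives, 38 could be tested in *atfs-1(null)*, where 14 fell and 1 rose (36.8% and 2.63%, median -0.45). The share that fell was near the 35.4% of all genes. The largest falls were in *dmsr-12* at -2.28 ± 0.45, *frpr-4* at -1.75 ± 0.28 and *frpr-13* at -1.59 ± 0.21. In *atfs-1(et18)*, 3 of 37 rose and 0 fell (edgeR; at an unadjusted p under 0.05, 4 were higher and 5 lower), namely *frpr-13* at 1.00 ± 0.17, *frpr-1* at 0.98 ± 0.25 and *frpr-11* at 0.69 ± 0.15, and the median was -0.15. The receptors below were picked for their ligands after their values were seen. *egl-6*, the receptor for peptides of *flp-10* and *flp-17*, had 1.00, 1.01 and 0.930 CPM in wild type and 1.93, 1.67 and 2.78 CPM in *atfs-1(null)* (1.11 ± 0.26, adjusted p = 0.00775), so that in this group *flp-17* and *egl-6* rose and *flp-10* fell. Of the receptors for *flp-18* peptides, *npr-5* fell by 1.25 and *npr-1* by 1.35 on the log2 scale (adjusted p = 0.000943 and 0.00527), while *npr-4* had a value of -0.22 (adjusted p = 0.333). *npr-22*, the receptor for *flp-7* peptides, fell by 0.78 (adjusted p = 0.0405), and *dmsr-1*, the receptor for *flp-13* peptides, by 0.98 (adjusted p = 0.00368). *npr-3* and *npr-11*, receptors for *flp-15* and *flp-34* peptides, had values of -0.33 and 0.11 that did not pass. In *atfs-1(et18)* none of these 8 receptors passed, with log2 fold changes from -0.44 to -0.04.

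**Figure D5:**
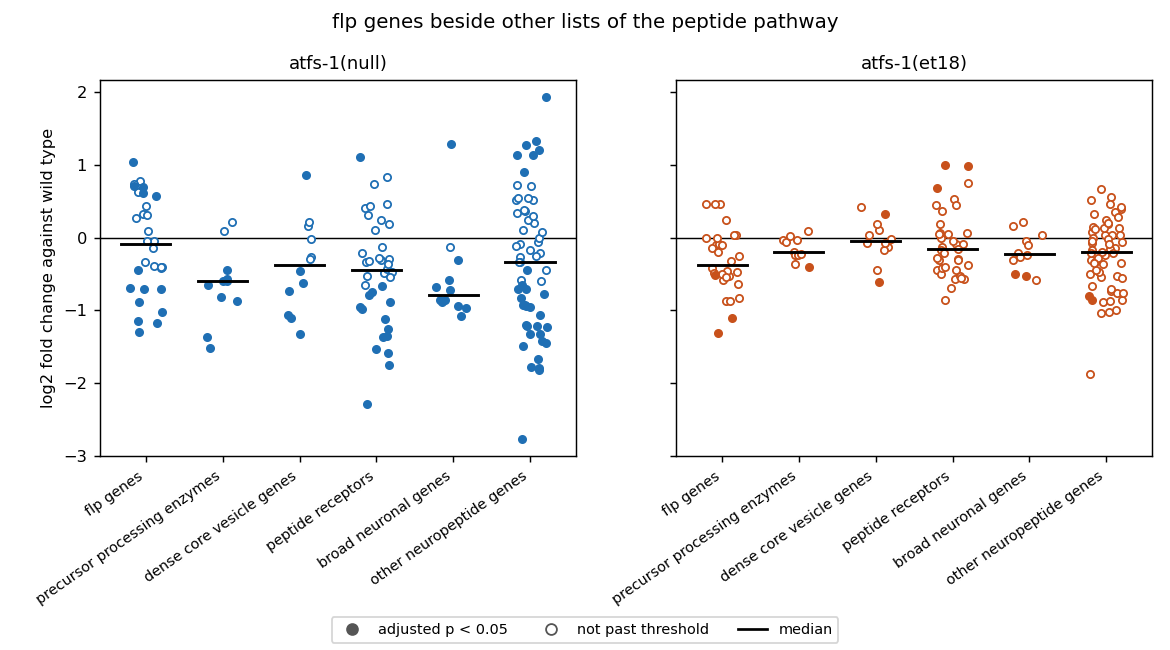
Log2 fold changes against wild type of the *flp* genes and of the genes for precursor processing, dense core vesicles, peptide receptors, broad neuronal expression and other neuropeptides, 1 point per gene, filled where the edgeR adjusted p is under 0.05, with the median as a line. In *atfs-1(null)* the medians are -0.09 for the *flp* genes, -0.60 for processing and -0.79 for the broad neuronal genes.

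Genes active in most neurons were measured as well. In *atfs-1(null)*, 10 of 12 broad neuronal genes fell and 1, *maco-1*, rose, by 1.29 on the log2 scale, and the median was -0.79. Their summed level was 557 to 603 CPM in wild type and 476 to 526 CPM in the mutant. *unc-18* fell by 1.07 and *aex-3* by 0.97. *rab-3*, a synaptic vesicle GTPase, had 20.3, 19.5 and 22.1 CPM in wild type and 12.99, 11.4 and 9.04 CPM in the mutant (-0.89 ± 0.18, edgeR adjusted p = 0.00378). In *atfs-1(et18)*, 2 of the 12 fell, *ric-4* by 0.52 and *snt-1* by 0.50, the median was -0.23, and *rab-3* had a value of -0.24 ± 0.13 (adjusted p = 0.238). All 7 touch receptor neuron genes fell in *atfs-1(null)* (median -1.24), led by *mec-7* at -1.42, *mec-18* at -1.41 and *mec-12* at -1.35. In *atfs-1(et18)* 0 of the 7 passed (edgeR; at an unadjusted p under 0.05, 2 were lower and 0 higher), and the median was -0.20. Of the neurotransmitter genes, 5 of 14 fell and 2 rose in *atfs-1(null)* (35.7% and 14.3%, median -0.37), with *tbh-1* at 3.27, *tdc-1* at 1.29 and *unc-46* at -1.33, and 2 of 15 fell and 1 rose in *atfs-1(et18)* (median -0.37), with *tdc-1* at 1.12, *cat-2* at -1.08 and *dat-1* at -0.98. Of 65 other neuropeptide genes, 25 of 59 tested fell and 7 rose in *atfs-1(null)* (42.4% and 11.9%, median -0.33), among them *nlp-23* at -2.77, *nlp-4* at 1.94 and *nlp-17* at -1.82. In *atfs-1(et18)*, 2 of 60 fell, *nlp-2* at -0.86 and *snet-1* at -0.81, and 0 rose (edgeR; at an unadjusted p under 0.05, 14 were lower and 1 higher), and the median was -0.20.

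Other tissues moved as well. In *atfs-1(null)*, 5 of 7 body wall muscle genes, 6 of 6 intestine genes, 4 of 6 epidermis genes and 5 of 5 glia genes fell, and none of these rose, while 6 of 6 germ line genes, 27 of 28 sperm genes tested and 6 of 6 yolk genes rose. The medians in that strain were -0.59 for muscle, -1.48 for intestine, -1.24 for epidermis, -0.84 for glia, 1.51 for germ line, 3.095 for sperm and 3.85 for yolk genes. In *atfs-1(et18)*, 5 of 7 muscle genes and 2 of 5 glia genes fell and of the intestine genes 1 fell and 1 rose. In that strain 0 of the epidermis, germ line, sperm and yolk genes passed (edgeR; also 0 at an unadjusted p under 0.05), although the median log2 fold change was 0.47 over the sperm genes and 1.19 over the yolk genes. The other medians were -0.60 for muscle, 0.13 for intestine, -0.65 for epidermis, -0.63 for glia and 0.32 for germ line genes. The CPM of a *flp* gene is a share of the RNA of all these tissues together. The part of each tissue or of developmental stage in the *flp* results was not tested.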

How the data were processed

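RNA-seq of 12 samples of L4 worms (3 per group) was analysed. The authors deposited unnormalized read counts for each gene. Per the labels' processing notes, the tools were STAR 2.5.3a, featureCounts, Subread 1.5.2 and edgeR 3.10.0, with the build WBcel235. Strand use and treatment of reads matching several places are not given in the sources used here. The labels number the samples of each group, and the study calls such repeats biologically independent. If they share a culture, p-values measure only the spread between these samples.

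Counts were tested in edgeR 4.0.16 (R 4.3.3) with TMM factors, the default low-count filter (minimum count 10, minimum total 15), quasi-likelihood F-tests and p-values adjusted by the Benjamini-Hochberg method over every gene tested, at 0.05. Mutants were compared with the wild type of their experiment, and the difference between mutants was tested over 12 libraries. CPM and RPKM were computed after TMM scaling within each experiment. The SE is approximate, the fold change over the square root of F. The scripts were tested on simulated data.

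Members and lists were chosen with earlier results of these data known. Values in every library are given for the *flp* genes past the threshold (up to 12 per comparison by size of change) and the 5 with the highest wild-type RPKM. Of each other list its counts, its median and up to 3 members with the largest change are given (of the tissue, germ line, sperm and yolk lists only counts and medians, since no result turns on their members), and *rab-3*, *egl-3* and *egl-21* always. *flp-1*, *flp-8*, *flp-11*, *flp-19* and *flp-25* were added after their values were seen.

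Alternatives were RLE size factors, library size alone, DESeq2 1.42.0, no filter, a minimum count of 50, a replicate block, all 12 libraries in one fit, each library left out in turn and, chosen after seeing the data, scaling to 12 broad neuronal genes. Replicate numbers come from the labels. In experiment 2 the deviations of same-numbered libraries from their group means correlated at 0.64, 0.52 and 0.103 across genes, each above the limit of 0.1 used here. Unlike-numbered ones correlated at -0.64 to 0.45. Wild-type replicate 3 correlated more with mutant replicate 2, at 0.115, than with mutant replicate 3, so pairing there is weak. The numbers were taken as pairs in the replicate block only, and the main fits had no block. Coordinates are those of the deposited table. Total counts limit precision, and the floor of 3 counts covers counting error only. No sequence was used here.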

Additional observations from a re-analysis of the deposited data

Results flagged for a closer look

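For 18 of the 30 *flp* genes the change in *atfs-1(et18)* differed from the change in *atfs-1(null)* in the test of the difference itself (edgeR over all 12 libraries, against 49.0% of all genes). Strain and experiment cannot be told apart in that test. Differences are the log2 fold change in *atfs-1(et18)* minus that in *atfs-1(null)*. The 11 below 0 were *flp-13* at -2.13 (adjusted p = 0.00542), *flp-33* at -1.88 (0.00609), *flp-17* at -1.72 (0.00951), *flp-1* at -1.34 (0.0318), *flp-3* at -1.32 (0.00156), *flp-32* at -1.21 (0.0292), *flp-6* at -1.21 (0.00415), *flp-8* at -1.18 (0.0151), *flp-19* at -1.16 (0.0316), *flp-18* at -1.15 (0.00423) and *flp-14* at -1.11 (0.0138). The 7 above 0 were *flp-15* at 1.72 (adjusted p = 0.00705), *flp-20* at 1.57 (0.00786), *flp-34* at 1.22 (0.0173), *flp-7* at 0.99 (0.0256), *flp-25* at 0.83 (0.0285), *flp-5* at 0.76 (0.0408) and *flp-10* at 0.64 (0.0160). *flp-3*, *flp-6*, *flp-8*, *flp-13*, *flp-14*, *flp-15*, *flp-17*, *flp-18*, *flp-20* and *flp-33* passed under all 19 alternatives. *flp-5* lost the call in 13 of the 19, *flp-7* and *flp-25* in 9, *flp-1* and *flp-19* in 8, *flp-32* in 5, *flp-10* in 3 and *flp-34* in 1.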

How the results depend on the processing

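Groups held 3 libraries, and the counts of genes higher and lower in *atfs-1(null)* moved with the scaling. Of 1409 values of single *flp* genes over all settings, 1192 kept their direction and call, 109 lost a call and 53 gained one. A further 55 changed sign, 19 of them with the scaling to the broad neuronal genes, and 53 of the 55 were values not called in either setting. Scaled by library size alone, the median of all genes in *atfs-1(null)* moved from -0.04 to 0.21 and the calls over all genes from 5134 higher and 5530 lower to 6244 and 4190. The *flp* median became 0.16 with library size alone and 0.021 with no filter on low counts. Scaled to the broad neuronal genes, the median of all genes was 0.52, the calls over all genes were 7697 higher and 2800 lower, the *flp* median was 0.46, the *flp* calls were 12 higher and 2 lower, *flp-22* had 0.12 and *flp-28* 0.52. In *atfs-1(et18)* that scaling gave 2869 higher and 751 lower over all genes, against 1473 and 1175, with 1 *flp* gene higher and 1 lower. DESeq2 called 9 *flp* genes lower there (9.96% of all genes), and the fit of all 12 libraries 5 (8.94% of all genes). The calls for the difference over all genes were 4220 above and 3705 below, with library size alone 3637 and 5069, and with the neuronal scaling 3276 and 5484. With a replicate block in the fit, 8 *flp* genes were higher in *atfs-1(null)* (34.5% of all genes) and 9 lower (36.0%). In *atfs-1(et18)* 1 was lower in that fit (9.77% of all genes). The same-numbered libraries of experiment 1 correlated at -0.02, 0.52 and 0.32 and share only a number. Leaving out 1 library at a time gave 1 to 12 genes higher and 7 to 9 lower in *atfs-1(null)*, 0 to 4 higher and 0 to 10 lower in *atfs-1(et18)*, and 11 to 20 differing between the mutants. Over all genes these fits gave 26.8% to 36.1% higher and 28.6% to 37.3% lower in *atfs-1(null)*. They gave 3.33% to 17.2% higher and 1.77% to 11.3% lower in *atfs-1(et18)*, and 34.9% to 59.2% differing. The cause of these shifts was not tested. Among the genes lower in *atfs-1(null)*, *flp-22* lost its call in 9 of 14 alternatives and *flp-4* in 6, and among those higher *flp-18* in 5, *flp-14* in 4 and *flp-3* in 3. In *atfs-1(et18)*, *flp-18* and *flp-33* lost theirs in 9 of 14 and *flp-13* in 3. *flp-32* had too few counts for the minimum count of 50 in *atfs-1(null)*.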
